A study of Rattus norvegicus with 28 samples.

Results

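Interferon-stimulated genes, the genes that cells switch on when interferon reaches its receptor, were followed in NRK-49F, an established line of fibroblasts grown out of normal rat kidney. A set of 34 such genes was listed by name, and 33 of them were among the 30178 genes of the deposited expression table; Samd9l was not analysed here. RNA-seq was made from 8 libraries in 4 groups of 2. In the first group, cells received transforming growth factor β1 (TGF-β), a cytokine that drives fibroblasts towards scar formation, for 48 h in methionine restriction medium (MetR). The second group received TGF-β for 48 h with siHoxc8, a small interfering RNA that lowers the mRNA of the homeobox transcription factor Hoxc8. The third group received TGF-β alone for 48 h, and the fourth was the control group, for which the labels give no time. Per the labels' protocols, the cells were starved for 24 h in 0.2% serum before TGF-β1 was added, at 5 ng per uL as the labels have it. Methionine was at 30 uM in the MetR medium, against 200 uM in its control medium, and the labels do not say whether the other RNA-seq libraries came from that control medium or from the usual growth medium. The labels name no control siRNA for the RNA-seq libraries, so transfection and loss of Hoxc8 cannot be told apart. They do not say that the 2 libraries of a group were separate cultures, so p-values here measure only the spread between libraries.

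Interferons bind cell-surface receptors that activate JAK kinases, which phosphorylate transcription factors of the STAT family. A complex of STAT proteins with IRF9 binds interferon-stimulated response elements in promoters, and STAT dimers bind gamma-activated sites. The genes switched on in this way block viral entry, translation and replication, add the ubiquitin-like protein ISG15 to other proteins, or feed back on the pathway. In kidney fibroblasts, as in other cells outside the immune system, many of them are also expressed at a basal level without added interferon. The roles named below were mostly worked out in human and mouse cells.

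Depth was 15118113 to 20146870 reads per library, recovered from the deposited values. Hoxc8, the target of the siRNA, was at 0.417 and 0.614 FPKM with TGF-β plus MetR, 0.463 and 0.0771 FPKM with TGF-β plus siHoxc8, 4.32 and 5.01 FPKM with TGF-β, and 1.12 and 1.34 FPKM in control cells. FPKM is the number of fragments per kilobase of gene, scaled to library size. Hoxc8 was lower with its siRNA than with TGF-β alone, and the MetR libraries overlapped those with siHoxc8. The fibroblast genes Col1a1 and Vim were at 1992.3 FPKM or more in every library, whereas the fibroblast surface marker Thy1 was listed at 0 and Dcn did not pass 1.08 FPKM. The 9 fibroblast markers found summed to 5919.7 to 8707.5 FPKM with TGF-β plus MetR, 9986.3 to 10478.8 with TGF-β plus siHoxc8, 11748.9 to 12723.8 with TGF-β and 6975.3 to 7040.8 in control cells. Of 12 leukocyte markers, 9 were below 1 FPKM in every library, and the defining ones were at or near 0: Tyrobp and Nkg7 were listed at 0 and Ptprc did not pass 0.0196 FPKM. The summed leukocyte markers, mostly Cd14, were at 21.3 to 26.2 FPKM with TGF-β plus MetR, 54.4 to 56.6 with TGF-β plus siHoxc8, 44.1 to 54.9 with TGF-β and 35.3 to 38.3 in control cells. Of 6 plasmacytoid dendritic cell markers, Siglech and Cd209 were listed at 0, and the sum, mostly Il3ra, was 111.2 to 120.1 FPKM with TGF-β plus MetR, 94.0 to 95.4 with TGF-β plus siHoxc8, 73.4 to 89.2 with TGF-β and 58.4 to 64.5 in control cells. Tcf4 and Irf8 of that list were at 6.06 to 10.6 and at 2.61 to 10.2 FPKM over the libraries. All 5 endothelial markers found were below 1 FPKM. Of 10 kidney epithelial markers, Epcam, Umod and Aqp2 were listed at 0, and the summed level, mostly Krt8, was 233.8 to 255.4 FPKM with TGF-β plus MetR, 647.2 to 686.7 with TGF-β plus siHoxc8, 195.4 to 226.8 with TGF-β and 239.2 to 241.7 in control cells. Among the epithelial markers, Cdh16 was at 2.53 and 2.76 FPKM with TGF-β plus MetR and at most 0.106 in the other groups. Aqp1 was at 3.21 and 3.26 FPKM in control cells and at most 0.808 elsewhere, and Slc34a1 was at most 1.2. Of the leukocyte markers, Fcer1g was at 3.22 and 3.08 FPKM with TGF-β plus MetR and at most 1.41 elsewhere. Cd68 did not pass 2.68 FPKM. The part of these marker levels in the results below was not tested. The MetR libraries differed most from each other: the root mean square SD over all genes tested was 0.307 in log2(FPKM + 1), against 0.177 to 0.223 in the other groups, and 372 genes differed at least 2-fold on that scale between them, against 152 to 166.

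The promoters of the genes were read first for the response element and the gamma-activated site. Windows of 300 bases, 250 before and 50 after the gene start, were at hand for 25 of the 33 genes in RefSeq's GRCr8 build, which is newer than the rn6 build of the expression data. The interferon-stimulated response element was searched as GAAANNGAAA and, for the other strand, TTTCNNTTTC. It was present in 15 of the 25 windows (60.0%), against 3.92% of all 33469 windows in the table. The gamma-activated site, searched as TTCNNNGAA, which reads the same on both strands, was present in 5 of the 25 (20.0%), namely Irf1, Irf9, Oas1a, Parp14 and Bst2, against 8.87% of all windows. The 15 genes with a response element were Irf7, Ifih1, Eif2ak2, Ifit3, Gbp2, Oas1a, Dtx3l, Parp12, Parp14, Bst2, Rsad2, Isg20, Xaf1, Ifi44 and Ifi27. A match describes letters in a window and does not show a bound site.

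The 6 stretches printed here belong to the genes with the largest fall under TGF-β among those with a response element, and show where in each promoter the element lies. Capitals mark the response element on either strand. Each is the 150 bases before the gene start, except Dtx3l, for which the first 30 bases from the start are given. All read 5′ to 3′ on the strand of the gene, in build GRCr8.
Xaf1, chr10:57415785-57415934, plus strand: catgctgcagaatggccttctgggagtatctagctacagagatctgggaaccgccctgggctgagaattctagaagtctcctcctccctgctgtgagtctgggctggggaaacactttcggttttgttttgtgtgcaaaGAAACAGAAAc
Gbp2, chr2:234005577-234005726, plus strand: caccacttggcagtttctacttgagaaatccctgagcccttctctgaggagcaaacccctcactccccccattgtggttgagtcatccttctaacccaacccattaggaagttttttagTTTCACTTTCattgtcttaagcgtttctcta
Bst2, chr16:18254968-18255117, minus strand: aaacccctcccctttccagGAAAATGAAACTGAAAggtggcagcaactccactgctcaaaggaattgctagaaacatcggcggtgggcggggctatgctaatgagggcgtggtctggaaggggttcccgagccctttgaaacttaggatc
Ifi44, chr2:243303841-243303990, minus strand: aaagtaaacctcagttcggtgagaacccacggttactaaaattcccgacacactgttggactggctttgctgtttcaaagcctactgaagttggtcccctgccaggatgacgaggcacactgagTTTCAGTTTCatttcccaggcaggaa
Parp14, chr11:78407984-78408133, plus strand: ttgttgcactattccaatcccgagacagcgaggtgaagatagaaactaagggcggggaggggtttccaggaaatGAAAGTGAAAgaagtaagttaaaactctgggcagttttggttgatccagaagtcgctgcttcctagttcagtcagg
Dtx3l, chr11:78320225-78320254, plus strand: cccgggaaacGAAACTGAAActttgcctct
In Xaf1 the element ended 1 base short of the gene start, and in Gbp2 and Ifi44 it lay on the opposite strand, 31 and 26 bases before the start. Ifi44 held a second element outside the stretch shown, centred 31 bases after the start. Bst2 held 2 elements that share 4 bases, beginning 131 and 125 bases before the start. In Parp14 the element began 76 bases before the start, with a gamma-activated site just before it.

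**Figure D1:**
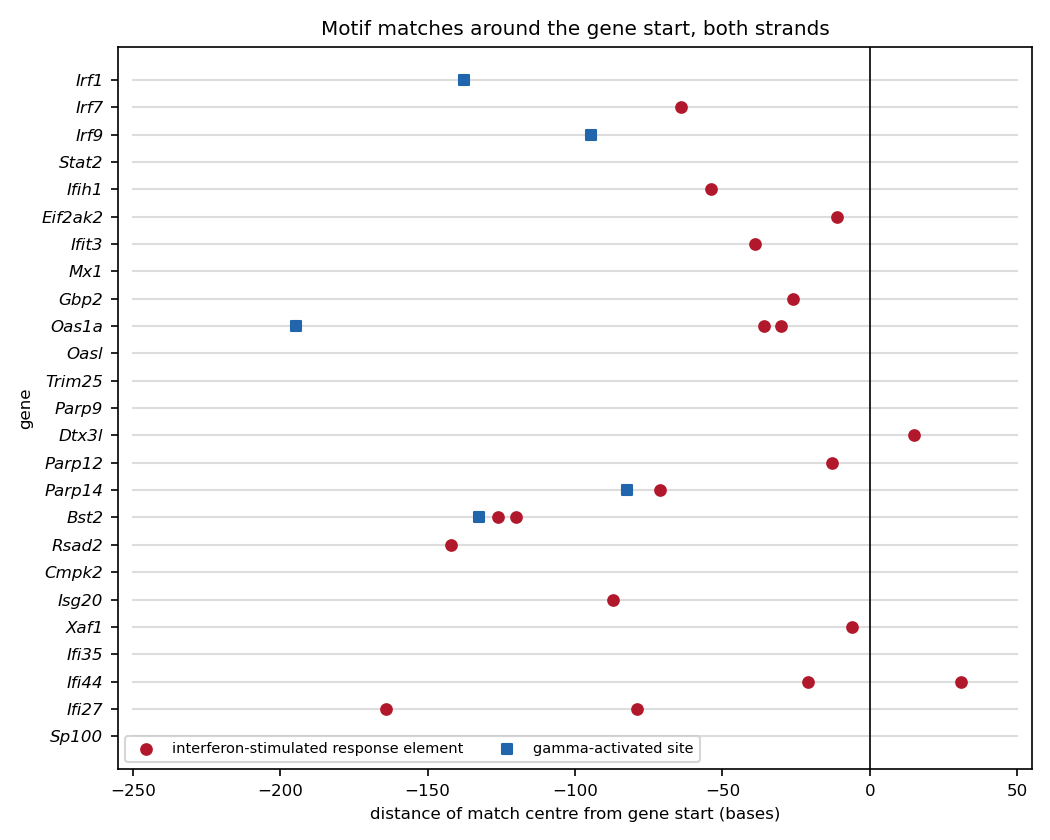
Position of each interferon-stimulated response element (red circles) and gamma-activated site (blue squares) in the 25 promoter windows, as distance of the match centre from the gene start in bases. Response elements lie within 164 bases before and 31 bases after the start, and 15 of the 25 genes have at least 1.

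TGF-β lowered most interferon-stimulated genes relative to control cells. Of 25 genes that passed the filter on low values, 21 fell and 1, Usp18, rose, while Isg15, Eif2ak2 and Ifi27 did not pass the test. The test was limma on log2(FPKM + 1) over 12315 genes, those that reached 1 FPKM in 2 or more libraries, with a Benjamini-Hochberg adjusted p under 0.05. Of all genes tested, 28.6% were lowered and 10.3% raised in this comparison, so the share of lowered genes was above the background. The median log2 change of the 25 genes was -1.08, against -0.19 for all genes tested. The largest falls on the log2(FPKM + 1) scale were in Xaf1, Ifit2, Gbp2, Bst2 and Ifi44, with changes from -1.92 to -2.17, and 13 of the 25 genes fell at least 2-fold on it. That scale understates changes of low genes. By the ratio of mean FPKM, 15 of the called genes were at least 2-fold lower, and Rtp4, 10.4-fold lower, came next after Xaf1, 11.2-fold lower. The share of all genes at either 2-fold cut is not given here, so both 2-fold counts stand without a background. In these bulk libraries, fewer cells that express a gene and less RNA per cell cannot be told apart. The median of all genes shifted to 0.01 when libraries were scaled by the median ratio of their genes, and the share of falls among all called genes went with it, at 47.1% there against 73.5% without that scaling. With that scaling, 15 of the 25 genes were lowered and 1 raised, where 17.0% of all genes tested were lowered and 19.1% raised. The median of the 25 genes was -0.87 there. The calls for Irf7, Irf9, Stat2, Trim25, Isg20 and Sp100 were lost at log2 changes of -0.35, -0.19, -0.38, -0.49, -0.21 and -0.32.

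**Figure D2:**
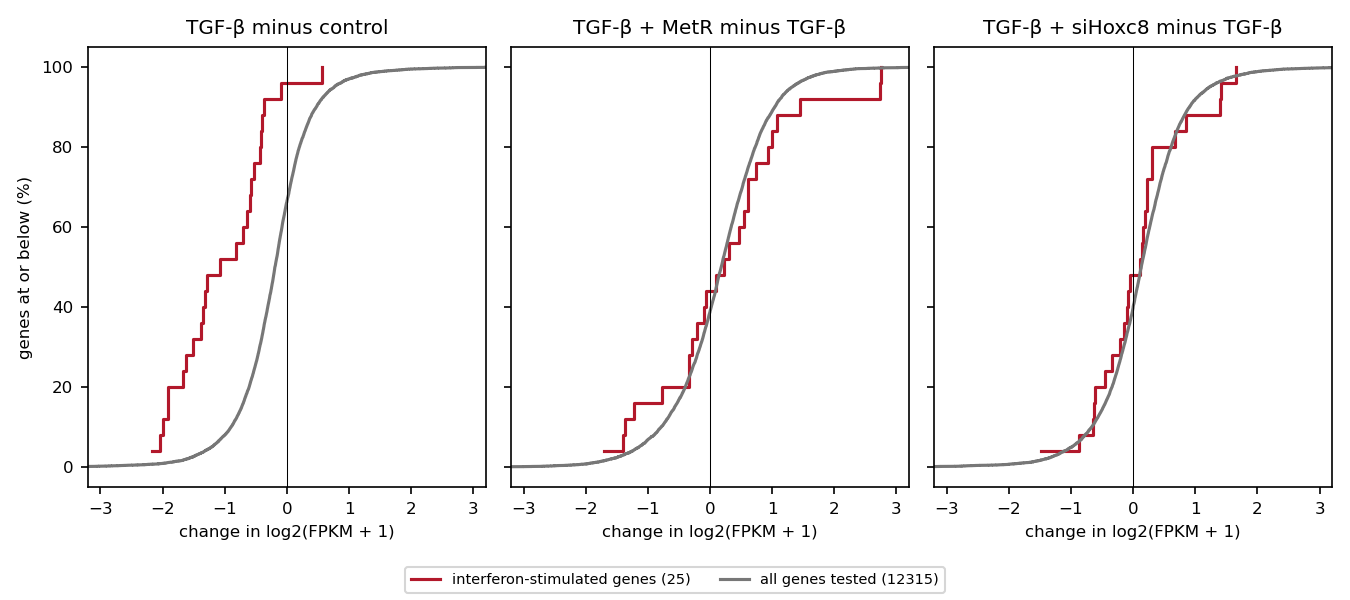
Cumulative share of genes (y axis, %) at or below each change in log2(FPKM + 1) (x axis) for the 25 interferon-stimulated genes (red) and all 12315 genes tested (grey), in 3 comparisons. With TGF-β minus control the red curve lies left of the grey one, with medians of -1.08 and -0.19; in the other 2 panels the curves run close together.

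With TGF-β plus MetR relative to TGF-β alone, 10 of the 25 genes rose and 5 fell. The risers were Gbp2, Ifit2, Cmpk2, Ifi44, Xaf1, Irf1, Parp12, Irf9, Dtx3l and Trim25, and the genes that fell were Isg20, Ifi35, Ifi27, Irf7 and Usp18. Of all genes tested, 34.8% were raised and 19.0% lowered, so both counts stood near the background. With all 8 libraries, the median log2 change was 0.23, against 0.18 for all genes. It was 0.34, against 0.21, without MetR replicate 1, and 0.24, against 0.14, without MetR replicate 2. With all 8 libraries, changes ranged from -1.70 for Isg20 to 2.75 for Gbp2. On the log2(FPKM + 1) scale, 4 genes rose and 4 fell at least 2-fold. By the ratio of mean FPKM, 6 rose and 4 fell at least 2-fold. The share of all genes at these 2-fold cuts is not given here, so these counts stand without a background. With median ratio scaling 8 genes were lowered and 9 raised, where 26.6% of all genes tested were lowered and 25.5% raised. The share of falls among all called genes was 51.1% there against 35.3% without that scaling. The median of all genes moved by more than 0.1 with this scaling, to -0.004.

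With TGF-β plus siHoxc8 relative to TGF-β alone, 5 of the 25 genes rose and 6 fell: Bst2, Irf1, Gbp2, Ifit2 and Ifi44 rose, whereas Usp18, Irf9, Isg20, Ifi27, Trim25 and Sp100 fell, and 14 of the 25 genes did not pass the test. Of all genes tested, 28.1% were raised and 15.7% lowered, so 5 raised genes of 25 were not above the background. The 6 lowered genes of 25 were too few to be read as an excess over the 15.7%. Of their calls, those of Isg20, Ifi27, Trim25 and Sp100 were lost with single libraries left out, as given below. With median ratio scaling the count of lowered genes was again 6, beside 22.3% lowered among all genes, so it then stood near the background. The median log2 change was 0.12, against 0.13 for all genes, with a range of -1.48 for Usp18 to 1.66 for Bst2. With median ratio scaling the same numbers of genes, 6 and 5, were lowered and raised, where 22.3% and 20.9% of all genes tested were. The median of the 25 genes was -0.008 there, and falls made up 51.6% of all called genes against 35.9% without that scaling. The comparisons of MetR and of siHoxc8 share the TGF-β libraries, so their values are given side by side and not as separate evidence of a shared response.

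**Figure D3:**
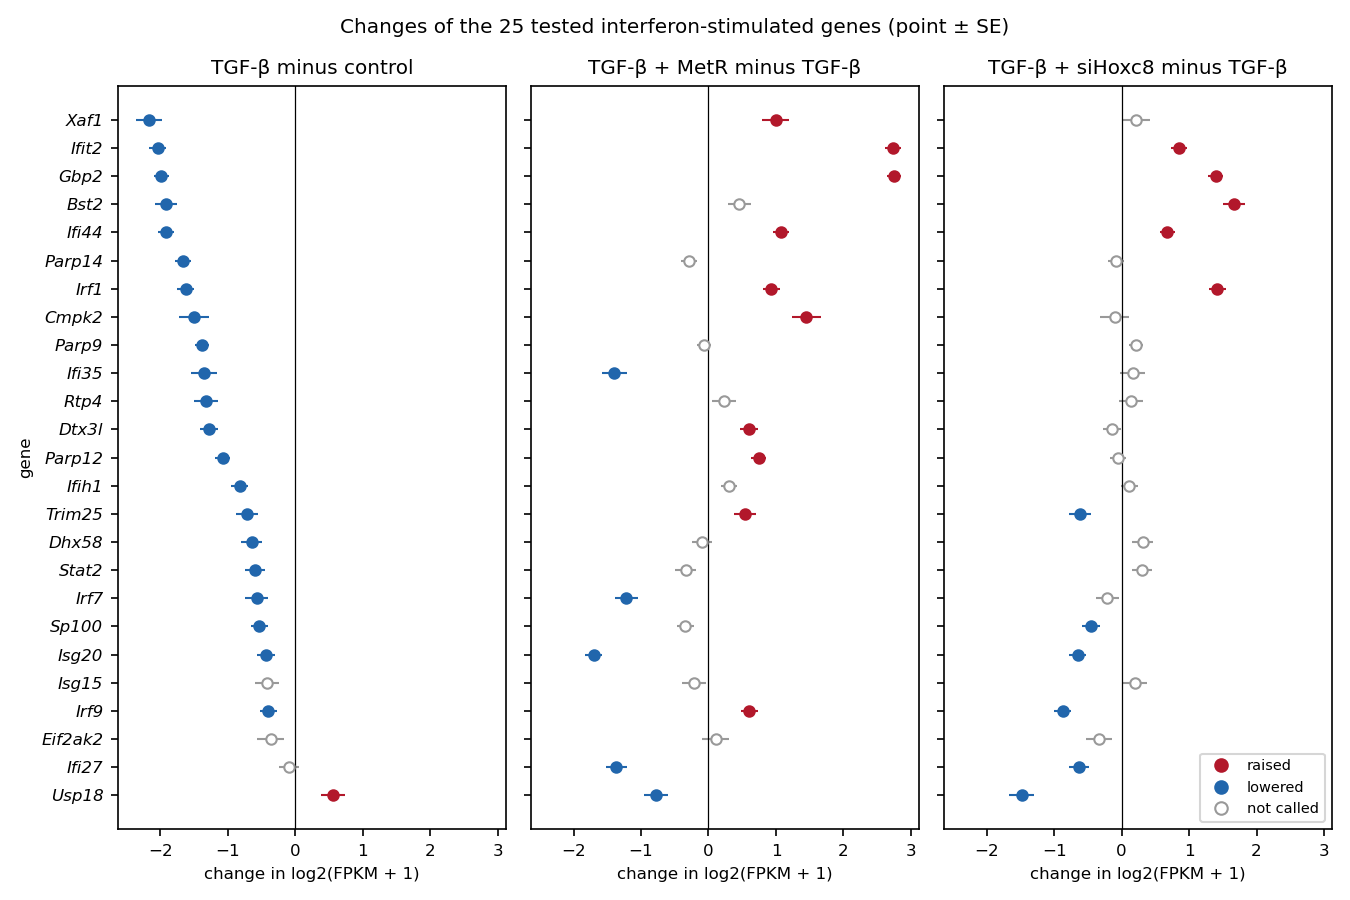
Change in log2(FPKM + 1) with its standard error for each of the 25 tested genes (rows, ordered by the change with TGF-β) in 3 comparisons; filled red points are raised, filled blue points lowered and open points not called. With TGF-β minus control 21 points are blue, while the other panels hold 10 red and 5 blue, and 5 red and 6 blue points.

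Among the transcription factors of the pathway, all 4 members fell with TGF-β. Irf1, which is induced by interferon gamma and itself switches on interferon genes and their targets, was at 13.8 and 17.7 FPKM with TGF-β plus MetR, 21.9 and 22.9 with TGF-β plus siHoxc8, 7.59 and 7.92 with TGF-β, and 26.2 and 25.9 in control cells. The TGF-β libraries were the lowest and the control libraries the highest, with no overlap between any of the 4 groups. Irf1 fell by 1.63 ± 0.13 (log2, SE) with TGF-β relative to control cells (adjusted p = 0.000156). It rose by 0.93 ± 0.13 with MetR (adjusted p = 0.000867) and by 1.42 ± 0.13 with siHoxc8 (adjusted p = 0.000185) relative to TGF-β. Irf7, the main amplifier of type I interferon production, was at 4.32 and 3.77 FPKM with TGF-β plus MetR, 9.31 and 8.93 with TGF-β plus siHoxc8, 9.16 and 12.5 with TGF-β, and 14.6 and 18.4 in control cells. Its lowest libraries were those with MetR, where it fell by 1.22 ± 0.17 relative to TGF-β (adjusted p = 0.000996). The TGF-β plus siHoxc8 libraries overlapped the TGF-β libraries.

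Irf9, the DNA-binding part of the complex of STAT proteins and IRF9, was at 17.1 and 19.1 FPKM with TGF-β plus MetR, 6.33 and 5.37 with TGF-β plus siHoxc8, 10.8 and 12.3 with TGF-β, and 16.3 and 14.8 in control cells. It thus moved in opposite directions in both combined treatments relative to TGF-β, up with MetR and down by 0.87 ± 0.13 with siHoxc8 (adjusted p = 0.00145). Stat2, which binds IRF9 in that complex, was at 11.4 and 8.01 FPKM with TGF-β plus MetR, 15.3 and 15.7 with TGF-β plus siHoxc8, 12.7 and 12.1 with TGF-β, and 19.4 and 19.1 in control cells. Control libraries were the highest, and neither combined treatment passed the test relative to TGF-β (adjusted p = 0.0966 with MetR and 0.141 with siHoxc8). The calls of Irf7, Irf9 and Stat2 with TGF-β, at log2 changes of -0.57, -0.40 and -0.60, were lost when single libraries were left out. For Irf7 the adjusted p was 0.0338, over a range of 0.0235 to 0.208 in the alternatives. It was 0.0564 without control replicate 1, 0.208 without control replicate 2, 0.158 without TGF-β replicate 1, and 0.061 and 0.0608 without siHoxc8 replicates 1 and 2. For Irf9 it was 0.04, over a range of 0.0261 to 0.312. It was 0.219 and 0.104 without control replicates 1 and 2, 0.159 and 0.056 without TGF-β replicates 1 and 2, and 0.062 and 0.0615 without siHoxc8 replicates 1 and 2. For Stat2 it was 0.0179, over a range of 0.0011 to 0.108. It was 0.0983 and 0.086 without control replicates 1 and 2, and 0.06 and 0.0827 without TGF-β replicates 1 and 2.

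Of 3 tested sensors of foreign nucleic acid, 2 fell with TGF-β relative to control cells, and none passed the test in a combined treatment relative to TGF-β. Ifih1, which encodes the double-stranded RNA sensor MDA5, was at 3.33 and 3.70 FPKM with TGF-β plus MetR, 3.05 and 2.90 with TGF-β plus siHoxc8, 2.53 and 2.80 with TGF-β, and 5.45 and 5.53 in control cells. It fell by 0.83 on the log2 scale with TGF-β relative to control cells. Eif2ak2, which encodes the kinase PKR that halts translation on sensing double-stranded RNA, was at 7.74 and 12.4 FPKM with TGF-β plus MetR, 6.53 and 7.50 with TGF-β plus siHoxc8, 8.49 and 9.71 with TGF-β, and 12.4 and 11.7 in control cells. Its MetR libraries spanned those of TGF-β and control cells, and it passed the test in none of the 3 comparisons (adjusted p = 0.681 with MetR, 0.211 with siHoxc8 and 0.181 with TGF-β). Dhx58, which encodes LGP2, a regulator of RNA sensing, stayed between 0.5 and 1.76 FPKM and fell with TGF-β (adjusted p = 0.0144). That call was lost without control replicate 2 (adjusted p = 0.0969) and without TGF-β replicate 1 (0.0549) or 2 (0.0503), in a range of 0.00736 to 0.104 over the alternatives. Zbp1, a sensor of left-handed nucleic acid, was at 0.0414 FPKM in TGF-β plus siHoxc8 replicate 2 and listed at 0 elsewhere.

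Ifit2 and Gbp2 were lowest with TGF-β alone and highest with MetR. Ifit2, whose protein binds viral RNA and restrains its translation, was at 42.2 and 52.3 FPKM with TGF-β plus MetR, 11.6 and 12.3 with TGF-β plus siHoxc8, 6.02 and 6.39 with TGF-β, and 28.7 and 28.6 in control cells. The groups did not overlap, and the MetR libraries stood above control cells. Ifit2 fell by 2.04 ± 0.12 with TGF-β relative to control cells (adjusted p = 6.52e-05). It rose by 2.74 ± 0.12 with MetR (adjusted p = 2.69e-05) and by 0.85 ± 0.12 with siHoxc8 (adjusted p = 0.00132) relative to TGF-β. Gbp2, a guanylate-binding GTPase that attacks membranes around pathogens, was at 12.3 and 12.3 FPKM with TGF-β plus MetR, 4.23 and 4.17 with TGF-β plus siHoxc8, 0.994 and 0.959 with TGF-β, and 6.88 and 6.79 in control cells. The order of the groups was the same as for Ifit2, with replicates closer together than any pair of groups. Gbp2 fell by 1.99 ± 0.11 with TGF-β relative to control cells (adjusted p = 4.96e-05). It rose by 2.75 ± 0.11 with MetR (adjusted p = 1.84e-05) and by 1.40 ± 0.11 with siHoxc8 (adjusted p = 0.000114) relative to TGF-β. The response element of Gbp2 is printed above; no promoter window was used for Ifit2. The counting of reads between members of the Ifit and guanylate-binding protein families is not described, so reads shared with near copies may be placed in either.

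**Figure D4:**
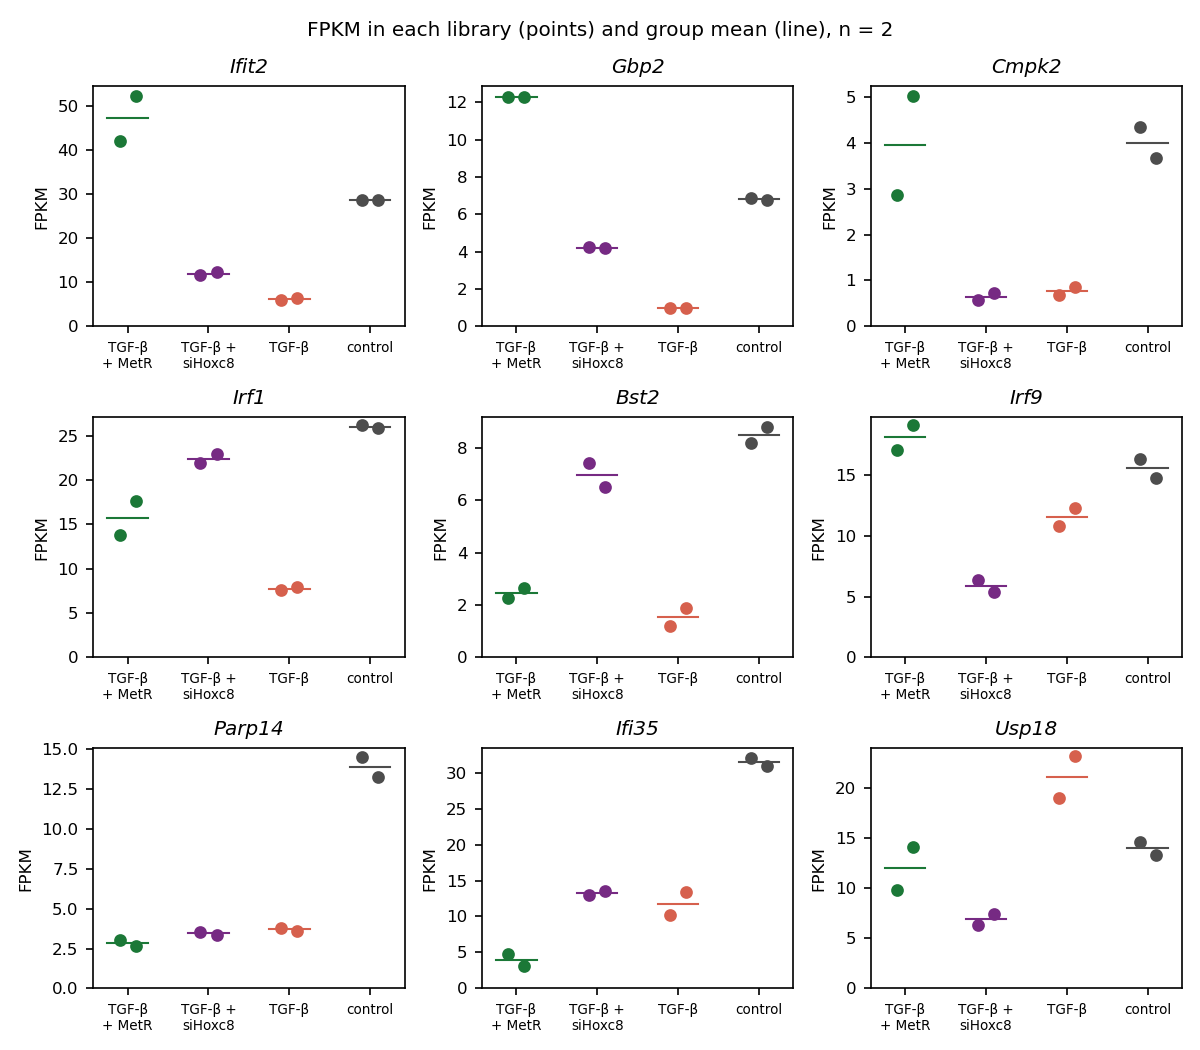
FPKM in each library (points) and the group mean (line) for 9 genes, with TGF-β plus MetR, TGF-β plus siHoxc8, TGF-β and control from left to right. Ifit2 and Gbp2 are highest with MetR, Irf1 and Bst2 approach control cells with siHoxc8, Parp14 stays low in all TGF-β groups, and Usp18 is highest with TGF-β alone.

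The genes of ISG15 conjugation did not move as a block. Isg15, the ubiquitin-like modifier, was at 1.89 and 1.35 FPKM with TGF-β plus MetR, 2.56 and 2.35 with TGF-β plus siHoxc8, 2.35 and 1.72 with TGF-β, and 3.35 and 2.74 in control cells. These values rest on 31 to 79 reads per library, and none of the 3 comparisons passed the test (adjusted p = 0.34 with MetR, 0.399 with siHoxc8 and 0.0952 with TGF-β). Usp18, the protease that removes ISG15 and blocks signalling at the interferon receptor, was at 9.80 and 14.1 FPKM with TGF-β plus MetR, 6.34 and 7.42 with TGF-β plus siHoxc8, 19.0 and 23.1 with TGF-β, and 14.6 and 13.3 in control cells. It was highest with TGF-β alone and lowest with siHoxc8, while the MetR libraries overlapped control cells. Usp18 fell by 1.48 ± 0.18 with siHoxc8 (adjusted p = 0.000695) and by 0.78 ± 0.18 with MetR (adjusted p = 0.00855) relative to TGF-β, and the MetR call was lost without TGF-β replicate 2 (adjusted p = 0.0625, in a range of 0.00207 to 0.0625 over the alternatives). Its rise with TGF-β, 0.56 ± 0.18 (adjusted p = 0.0441), was lost without control replicate 1 (0.122) or 2 (0.193), TGF-β replicate 1 (0.0649) or 2 (0.209), or siHoxc8 replicate 1 or 2 (0.0667 each), in a range of 0.01 to 0.209.

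Trim25, a ubiquitin ligase that activates the RNA sensor RIG-I and also ligates ISG15, was at 30.4 and 22.7 FPKM with TGF-β plus MetR, 12.2 and 10.4 with TGF-β plus siHoxc8, 19.7 and 16.0 with TGF-β, and 29.5 and 30.0 in control cells. It was lowest with siHoxc8, where it fell by 0.61 ± 0.16 relative to TGF-β (adjusted p = 0.0196). That call was lost without TGF-β replicate 1 (adjusted p = 0.114) and without siHoxc8 replicate 2 (0.122), in a range of 0.00624 to 0.122 over the alternatives. Its fall with TGF-β (adjusted p = 0.0127) was lost without control replicate 1 (0.0695) or 2 (0.0734) and without TGF-β replicate 2 (0.0774), in a range of 0.00379 to 0.0774. Its rise with MetR (adjusted p = 0.0255) was lost without TGF-β replicate 2 (0.145), without MetR replicate 1 (0.0909) and with median ratio scaling (0.153), in a range of 0.00742 to 0.193.

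The PARP enzymes, which attach ADP-ribose to proteins, and Dtx3l, the ubiquitin ligase that pairs with PARP9, all fell with TGF-β. Parp9 was at 5.32 and 5.86 FPKM with TGF-β plus MetR, 7.02 and 7.05 with TGF-β plus siHoxc8, 5.75 and 6.09 with TGF-β, and 17.1 and 16.9 in control cells. Parp14, known for its action in interleukin-4 and interferon responses, was at 3.06 and 2.63 FPKM with TGF-β plus MetR, 3.52 and 3.37 with TGF-β plus siHoxc8, 3.81 and 3.60 with TGF-β, and 14.5 and 13.3 in control cells. Both stood apart from control cells in every library with TGF-β, and neither passed the test in a combined treatment relative to TGF-β. With TGF-β relative to control cells, Parp14 fell by 1.67 ± 0.12 (adjusted p = 0.000126) and Parp9 fell by 1.38 ± 0.11 (adjusted p = 0.000152). Dtx3l was at 3.32 and 3.78 FPKM with TGF-β plus MetR, 1.71 and 1.70 with TGF-β plus siHoxc8, 1.98 and 2.0 with TGF-β, and 6.71 and 5.82 in control cells. Parp12, which acts against viral translation, was at 8.97 and 9.89 FPKM with TGF-β plus MetR, 4.70 and 5.32 with TGF-β plus siHoxc8, 5.32 and 5.15 with TGF-β, and 12.0 and 12.3 in control cells. Dtx3l and Parp12 rose with MetR to levels between those of TGF-β and control cells, and neither passed the test with siHoxc8. The rise of Dtx3l with MetR (adjusted p = 0.00642) was lost when libraries were weighted by their spread (0.0621, in a range of 0.00227 to 0.0621 over the alternatives). Parp9 and Dtx3l overlap in the RefSeq annotation, and the strand setting of the counting is not given in the sources used here. Reads from the stretch that both genes share may thus be placed in either.

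Among the effectors at membranes and on nucleotides, Bst2, the tetherin that holds budding virus at the cell surface, was at 2.25 and 2.66 FPKM with TGF-β plus MetR, 7.42 and 6.51 with TGF-β plus siHoxc8, 1.18 and 1.89 with TGF-β, and 8.19 and 8.81 in control cells. The siHoxc8 libraries lay just below control cells and far from the TGF-β and MetR libraries. Bst2 fell by 1.92 ± 0.17 with TGF-β relative to control cells (adjusted p = 0.000236), and it rose by 1.66 ± 0.17 with siHoxc8 relative to TGF-β (adjusted p = 0.000306). With MetR it was 0.46 ± 0.17 above TGF-β and did not pass the test (adjusted p = 0.0502). Its values rest on 16 to 131 reads per library. Cmpk2, a mitochondrial nucleotide kinase next to the antiviral radical enzyme gene Rsad2 in mammalian genomes, was at 2.87 and 5.02 FPKM with TGF-β plus MetR, 0.568 and 0.717 with TGF-β plus siHoxc8, 0.674 and 0.857 with TGF-β, and 4.34 and 3.68 in control cells. The MetR libraries spanned the control libraries, and the siHoxc8 libraries overlapped the TGF-β libraries. Cmpk2 fell by 1.50 ± 0.22 with TGF-β relative to control cells (adjusted p = 0.00188) and rose by 1.45 ± 0.22 with MetR relative to TGF-β (adjusted p = 0.00133). Bst2 and Cmpk2 thus changed in different combined treatments, and the direct test between them is given below.

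Isg20, an exonuclease that degrades viral RNA, was at 3.46 and 4.39 FPKM with TGF-β plus MetR, 8.40 and 9.96 with TGF-β plus siHoxc8, 14.8 and 15.2 with TGF-β, and 20.5 and 20.6 in control cells. The 4 groups did not overlap. Isg20 fell by 1.70 ± 0.13 with MetR (adjusted p = 0.000111) and by 0.65 ± 0.13 with siHoxc8 (adjusted p = 0.00597) relative to TGF-β. The siHoxc8 call was lost without siHoxc8 replicate 1 (adjusted p = 0.0575, in a range of 0.00174 to 0.0575). The fall with TGF-β relative to control cells (adjusted p = 0.035) was lost without either control library (0.149 each), without TGF-β replicate 1 (0.113) or 2 (0.0985), and without siHoxc8 replicate 1 (0.0537) or 2 (0.054), in a range of 0.0115 to 0.212. Isg20 differed in this from Gbp2 and Ifit2, which rose in both combined treatments.

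Of the remaining interferon-stimulated genes, Xaf1, a proapoptotic partner of the inhibitor XIAP, was at 2.54 and 1.61 FPKM with TGF-β plus MetR, 0.565 and 1.01 with TGF-β plus siHoxc8, 0.602 and 0.447 with TGF-β, and 5.72 and 5.98 in control cells. Ifi44, a cytoplasmic protein that restrains virus growth, was at 4.92 and 5.50 FPKM with TGF-β plus MetR, 3.74 and 3.70 with TGF-β plus siHoxc8, 2.0 and 1.89 with TGF-β, and 10.4 and 9.83 in control cells. Every library with TGF-β was below control cells for both genes. Xaf1 fell by 2.17 ± 0.20 (adjusted p = 0.000283) and Ifi44 fell by 1.92 ± 0.12 (adjusted p = 7.06e-05) with TGF-β relative to control cells. Xaf1 rose by 1.00 ± 0.20 (adjusted p = 0.0045) and Ifi44 rose by 1.08 ± 0.12 (adjusted p = 0.000358) with MetR relative to TGF-β. With siHoxc8, Ifi44 rose by 0.68 ± 0.12 (adjusted p = 0.00303), and Xaf1 did not pass the test (adjusted p = 0.406). The Xaf1 values rest on 6 to 87 reads per library. 

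Ifi35, a leucine zipper protein that binds NMI, was at 4.77 and 3.04 FPKM with TGF-β plus MetR, 13.0 and 13.5 with TGF-β plus siHoxc8, 10.2 and 13.4 with TGF-β, and 32.0 and 31.0 in control cells. It fell by 1.35 ± 0.19 with TGF-β relative to control cells (adjusted p = 0.00148) and by a further 1.40 ± 0.19 with MetR relative to TGF-β (adjusted p = 0.000805). Ifi27, a mitochondrial and nuclear membrane protein and by far the most abundant member, was at 71.6 and 59.0 FPKM with TGF-β plus MetR, 105.0 and 112.9 with TGF-β plus siHoxc8, 146.7 and 194.5 with TGF-β, and 179.7 and 181.4 in control cells. The TGF-β libraries spanned the control libraries (adjusted p = 0.647), and both combined treatments lay below. Ifi27 fell by 1.36 ± 0.15 with MetR (adjusted p = 0.00039) and by 0.63 ± 0.15 with siHoxc8 (adjusted p = 0.0128) relative to TGF-β. The siHoxc8 call was lost without TGF-β replicate 2 (adjusted p = 0.0555) and without siHoxc8 replicate 1 (0.0821), in a range of 0.00279 to 0.0821.

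Sp100, a nuclear body protein, was at 8.04 and 8.10 FPKM with TGF-β plus MetR, 8.19 and 6.71 with TGF-β plus siHoxc8, 10.9 and 10.1 with TGF-β, and 16.7 and 14.7 in control cells. It fell with TGF-β relative to control cells (adjusted p = 0.0142) and fell again with siHoxc8 relative to TGF-β (adjusted p = 0.0231), and with MetR it did not pass the test (adjusted p = 0.0516). The fall with TGF-β was lost without control replicate 1 (0.116) and TGF-β replicate 2 (0.0681), in a range of 0.0116 to 0.116. The fall with siHoxc8 was lost without TGF-β replicate 1 (0.0977) or 2 (0.054) and without siHoxc8 replicate 2 (0.168), in a range of 0.00653 to 0.168. Rtp4, a chaperone-like protein of interferon responses, was between 0.16 and 0.54 FPKM in all libraries with TGF-β, against 2.23 and 1.75 FPKM in control cells, where it rested on 77 and 60 reads. It fell by 1.32 ± 0.18 with TGF-β relative to control cells (adjusted p = 0.00121). Rtp4 overlaps Masp1, which was at 1.10 to 17.5 FPKM, so reads from the stretch they share may be placed in either too.

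**Figure D5:**
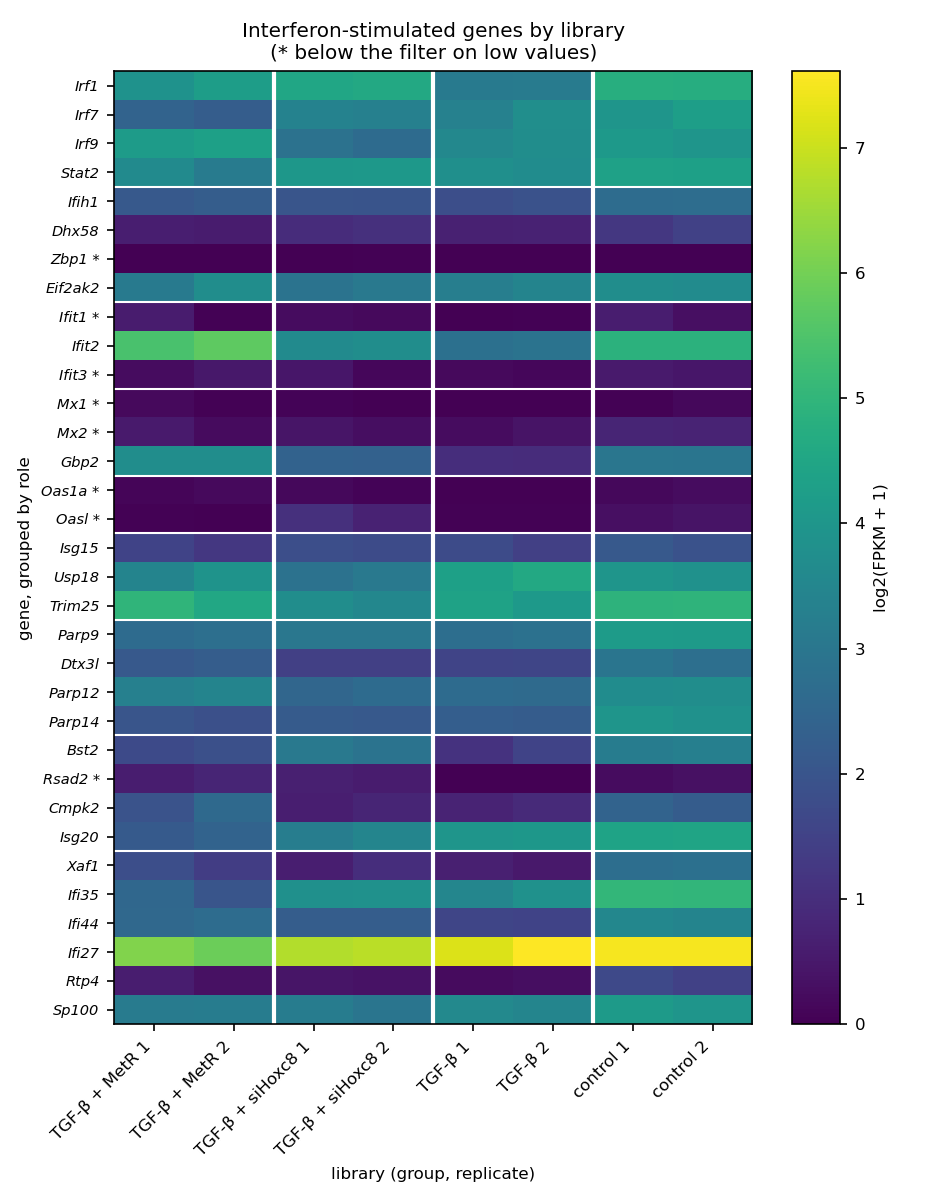
Level of the 33 interferon-stimulated genes, as log2(FPKM + 1), in each of the 8 libraries, with genes grouped by role and an asterisk on the 8 genes below the filter on low values. Control libraries are brightest for most rows, Ifit2 and Gbp2 are brightest with MetR, and Ifi27 is the brightest row throughout.

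A further 8 genes did not reach the filter. They include the textbook antiviral genes Mx1, Mx2, Oas1a, Oasl, Rsad2, Ifit1 and Ifit3, as well as Zbp1. None passed 1.08 FPKM in any library. Oasl, a protein related to the enzymes that make the messenger for RNase L, gave 2 and 0 reads with TGF-β plus MetR, 45 and 33 with TGF-β plus siHoxc8, 1 and 1 with TGF-β, and 12 and 16 in control cells. Rsad2, which encodes viperin, gave 39 and 46 reads with TGF-β plus MetR, 33 and 34 with TGF-β plus siHoxc8, 1 and 0 with TGF-β, and 12 and 18 in control cells. For both genes the reads with siHoxc8 were above those of control cells, and for Rsad2 so were those with MetR. In the alternative fit with no filter on low values, Rsad2 rose with MetR (adjusted p = 0.00207) and siHoxc8 (0.0033) and Oasl rose with siHoxc8 (0.00336), all relative to TGF-β, where 22.3% of all 19435 genes were raised with MetR and 16.6% with siHoxc8. Relative to control cells, Oasl (adjusted p = 0.014) and Rsad2 (0.0217) rose with TGF-β plus siHoxc8, where 13.3% were raised. With TGF-β plus MetR relative to control cells, Rsad2 rose (0.00955) and Mx2 fell (0.0484), where 18.4% were raised and 19.5% lowered. With TGF-β alone relative to control cells, Rsad2 (0.0478) and Mx2 (0.0484) fell, where 16.7% were lowered. Mx1 and Oas1a were listed at 0 in both TGF-β libraries and gave at most 10 reads elsewhere. Ifit1 gave 21 and 1 reads in the 2 MetR libraries, and it overlaps Ifit1bl, which was at 1.25 to 9.43 FPKM.

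The groups were also set directly against control cells and against each other. With TGF-β plus MetR relative to control cells, 18 of the 25 genes fell and 2, Gbp2 and Ifit2, rose. Of all genes tested, 29.3% were lowered and 28.0% raised there. Among the falls, the calls of Ifih1, Isg15 and Parp12 were lost under some of the alternatives listed below. Gbp2 averaged 12.3 ± 0.01 FPKM with TGF-β plus MetR and 6.83 ± 0.06 FPKM in control cells, and Ifit2 averaged 47.3 ± 7.15 FPKM with TGF-β plus MetR and 28.7 ± 0.09 FPKM in control cells (SD, n = 2 each). Their log2 changes were 0.76 ± 0.11 and 0.69 ± 0.12 (SE; adjusted p = 0.000789 and 0.00201). Ifi35 was the lowest against control cells, at -2.75, followed by Isg20, Parp14 and Irf7. Usp18, Eif2ak2, Cmpk2, Trim25 and Irf9 did not pass the test there. With TGF-β plus siHoxc8 relative to control cells, 20 of the 25 genes fell and none rose, where 27.0% of all genes tested were lowered and 21.7% raised. The calls of Irf7 and Eif2ak2 were lost under some of the alternatives. The 25 genes had a median of -1.09 (log2), against -0.05 for all genes. The 5 genes that did not pass the test were Isg15, Stat2, Irf1, Dhx58 and Bst2. Irf1 was 0.21 ± 0.13 below control cells (adjusted p = 0.206) and Bst2 was 0.26 ± 0.17 below (adjusted p = 0.239), which does not show that their levels were the same as in control cells.

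Set against each other, TGF-β plus siHoxc8 was lower than TGF-β plus MetR in 10 of the 25 genes and higher in 7. Of all genes tested, 29.3% were lower and 24.9% higher. The calls of Irf1, Stat2, Usp18, Xaf1 and Ifi44 were lost under some of the alternatives. The genes lower with siHoxc8 were led by Ifit2 (-1.89 ± 0.12, adjusted p = 3.14e-05), Cmpk2 (-1.56 ± 0.22, adjusted p = 0.000857) and Irf9 (-1.48 ± 0.13, adjusted p = 9.8e-05). The genes higher with siHoxc8 were led by Ifi35 (1.56 ± 0.19, adjusted p = 0.000405), Bst2 (1.20 ± 0.17, adjusted p = 0.0008) and Isg20 (1.05 ± 0.13, adjusted p = 0.000493). Bst2 and Cmpk2 therefore differed between both treatments in opposite directions. The median over the 25 genes was -0.11, and that over all genes was -0.06.

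Promoters with and without a response element were then compared for these changes. With TGF-β relative to control cells, 10 of 12 tested genes with a response element in the window fell, at a median of -1.18 (log2), and all 8 tested genes with a window but no response element fell, at a median of -1.03. With MetR relative to TGF-β, 5 of the 12 genes with the element rose and 3 fell, and 4 of the 8 without it rose and 1 fell. With siHoxc8 relative to TGF-β, 3 of the 12 genes with the element rose and 2 fell, and 1 of the 8 without it rose and 3 fell. Among all genes tested, 28.6% were lowered with TGF-β relative to control cells. Relative to TGF-β, 34.8% were raised and 19.0% lowered with MetR, and 28.1% raised and 15.7% lowered with siHoxc8. The difference between both sets of promoters was not tested.

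The upstream pathway was examined with lists of its own. No interferon gene passed the filter on low values. Of 12 interferon genes in the table, 10, among them Ifnb1, Ifng and Ifnl1, were listed at 0 in every library; Ifna5 was at 0.106 FPKM in 1 TGF-β library, and Ifne did not pass 0.676 FPKM. Of the 9 genes for receptors and kinases, 5 fell and none rose with TGF-β relative to control cells, beside the 28.6% lowered among all genes. Jak2, a kinase bound to the interferon gamma receptor, was at 12.7 and 22.8 FPKM with TGF-β plus MetR, 14.0 and 14.9 with TGF-β plus siHoxc8, 9.01 and 10.2 with TGF-β, and 23.6 and 22.7 in control cells. Its TGF-β libraries were the lowest. It fell by 1.19 ± 0.23 with TGF-β relative to control cells (adjusted p = 0.00622), Jak1 fell by 0.86 ± 0.09 (adjusted p = 0.000514) and the interferon gamma receptor chain Ifngr2 fell by 0.68 ± 0.09 (adjusted p = 0.00117). With MetR relative to TGF-β, 4 of the 9 rose and 1 fell, where 34.8% of all genes tested were raised and 19.0% lowered. With siHoxc8 none rose and Ifnar1 fell, where 28.1% were raised and 15.7% lowered. These smaller counts changed with the settings. With median ratio scaling the receptor genes raised with MetR numbered 0, without TGF-β replicate 1 or 2 they numbered 2, and the Ifnar1 call with siHoxc8 (adjusted p = 0.0164) was lost without TGF-β replicate 1, siHoxc8 replicate 1 or siHoxc8 replicate 2, in a range of 0.00266 to 0.123 over the alternatives. The fall with MetR was that of Il10rb, a chain shared by interferon lambda and interleukin 10 receptors, and its call was kept in 8 of 17 alternatives, with an adjusted p of 0.00402 to 0.17 over them. With siHoxc8 the falls numbered 3 with median ratio scaling or when either MetR library was left out, and the risers numbered 2 when either was left out.

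Of 8 tested inhibitors of interferon signalling, 3 fell and 1 rose with TGF-β relative to control cells, beside 28.6% lowered and 10.3% raised among all genes. Irf2, a repressor that competes with IRF1, fell by 0.82 ± 0.11 there (adjusted p = 0.00152) and Socs3 fell by 0.77 ± 0.12 (adjusted p = 0.00249). The 1 riser was Usp18, a member described above. With siHoxc8 relative to TGF-β, 4 rose and 1 fell, beside 28.1% raised and 15.7% lowered among all genes. Socs1, the suppressor that shuts off JAK kinases, was at 3.75 and 3.12 FPKM with TGF-β plus MetR, 9.77 and 8.87 with TGF-β plus siHoxc8, 2.01 and 2.95 with TGF-β, and 3.53 and 3.57 in control cells. It stood apart in the siHoxc8 libraries and rose by 1.58 ± 0.16 there relative to TGF-β (adjusted p = 0.000335). Without siHoxc8 replicate 1 or 2, the inhibitors raised numbered 2. With MetR relative to TGF-β, 3 rose and 1 fell, beside 34.8% raised and 19.0% lowered among all genes. Cish, another suppressor of cytokine signalling, rose by 1.28 ± 0.19 there (adjusted p = 0.00123).

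Of 16 tested genes for nucleic acid sensing and interferon induction, 6 fell and none rose with TGF-β relative to control cells. Among all genes tested, 28.6% were lowered and 10.3% raised. The DNA pathway adaptor Sting1 was at 6.80 and 5.27 FPKM with TGF-β plus MetR, 2.79 and 2.19 with TGF-β plus siHoxc8, 4.17 and 3.56 with TGF-β, and 11.7 and 12.1 in control cells. It fell by 1.41 ± 0.16 with TGF-β (adjusted p = 0.000596), and Ddx58, which encodes the sensor RIG-I, fell by 0.97 ± 0.16 (adjusted p = 0.00344). Without control replicate 1 or 2, or without TGF-β replicate 2, the falls in this list numbered 3. Irf3, the factor that first switches on interferon genes, was at 18.2 and 15.4 FPKM with TGF-β plus MetR, 28.2 and 27.0 with TGF-β plus siHoxc8, 43.3 and 43.5 with TGF-β, and 46.4 and 46.4 in control cells. It fell by 1.32 ± 0.10 with MetR (adjusted p = 0.000111) and by 0.63 ± 0.10 with siHoxc8 (adjusted p = 0.0023) relative to TGF-β. The list as a whole had 8 risers and 1 fall with MetR, beside 34.8% raised and 19.0% lowered among all genes. The risers numbered 4 with quantile normalization and 5 with only the groups compared, and the falls numbered 2 with median ratio scaling, with quantile normalization or without MetR replicate 1. With siHoxc8 the list had 6 risers and 4 falls, beside 28.1% raised and 15.7% lowered among all genes. The lipopolysaccharide receptor Tlr4 fell by 1.29 ± 0.14 there (adjusted p = 0.000387). With median ratio scaling the risers with siHoxc8 numbered 2. They numbered 3 and 1 without TGF-β replicates 1 and 2, and 1 and 2 without siHoxc8 replicates 1 and 2, while the falls numbered 2 without any 1 of the control, TGF-β or siHoxc8 libraries.

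A wider list of 41 tested interferon-stimulated genes outside the members had 33 falls and 1 rise with TGF-β relative to control cells. Its median was -0.70 (log2). Of all genes tested, 28.6% were lowered and 10.3% raised, at a median of -0.19. The falls numbered 18 without control replicate 1, 21 with median ratio scaling and 21 at a mean of at least 5 FPKM, where fewer genes were tested. The gene that rose was Ripk2, a kinase of NOD receptor signalling, by 1.59 ± 0.11 (adjusted p = 8.94e-05). Cxcl10, a chemokine induced by interferon gamma, was at 2.49 and 7.01 FPKM with TGF-β plus MetR, 8.97 and 10.0 with TGF-β plus siHoxc8, 0.272 and 0.269 with TGF-β, and 3.93 and 3.72 in control cells. It fell by 1.93 ± 0.33 with TGF-β relative to control cells (adjusted p = 0.00383). It rose by 2.06 ± 0.33 with MetR (adjusted p = 0.00178) and by 3.04 ± 0.33 with siHoxc8 (adjusted p = 0.000439) relative to TGF-β, and the siHoxc8 libraries stood above all others. Of the 41 genes, 13 rose and 5 fell with MetR relative to TGF-β, at a median of 0.14. Among all genes, 34.8% were raised and 19.0% lowered, at a median of 0.18. The risers numbered 7 with library weights and 8 at a mean of at least 5 FPKM. Without TGF-β replicate 2 the falls numbered 3, with median ratio scaling 9 and with quantile normalization 8. With siHoxc8, 11 rose and 6 fell at a median of 0.14. Among all genes, 28.1% were raised and 15.7% lowered, at a median of 0.13. The count of falls in the list changed when single libraries were left out. Psmb10, an immunoproteasome subunit that cuts antigen, fell by 1.68 ± 0.21 with TGF-β relative to control cells (adjusted p = 0.000921) and rose by 1.70 ± 0.21 with siHoxc8 relative to TGF-β (adjusted p = 0.000692). The background shares given above for the members in the main test apply to these lists in that test only. With median ratio scaling, 17.0% of all genes tested were lowered with TGF-β relative to control cells. There, 25.5% were raised and 26.6% lowered with MetR relative to TGF-β, and 20.9% raised and 22.3% lowered with siHoxc8. List counts at the remaining settings are given without their own background and should not be set against the main shares.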

How the data were processed

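The deposited table gives FPKM values per gene symbol for 8 RNA-seq libraries, as the authors made it; the submitters' processing notes list Trim Galore, Bowtie2 2.3.5.1, deepTools, featureCounts and build rn6 without roles, while no source used here gives the gene annotation or the strand setting. All 8 columns were used, and the 20 chromatin samples were not analysed here. FPKM were scaled by the relative depth of each library and divided by a step per gene, which gave whole reads for 100.0% of 19435 genes above 0 (tolerance 0.02 reads). The step was searched as the divisor that makes the values of a gene whole, so this share was partly fixed in advance. A gene above 0 in a single library is always given 1 read. Libraries were grouped by their titles. The 12315 genes that reached 1 FPKM in 2 or more libraries were tested on log2(FPKM + 1), computed here from the deposited FPKM, with limma 3.58.1 in R 4.3.3: 1 coefficient per group over all 8 libraries, moderated variances with a trend (4 residual and 3.47 prior degrees of freedom), two-sided p-values, Benjamini-Hochberg adjustment per comparison over all genes tested and a threshold of 0.05. The test was first run on simulated data in which few genes changed and all libraries varied alike. These data differ in both respects, so that run is no support for the calls here.

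The members and all gene lists were chosen with earlier results of these data known. Of the pathway lists, 1 gene is not reported here and was left out of their counts. Per-library values were printed for tested genes with a group mean of at least 2 FPKM, and full statistics for up to 10 called genes per comparison by size of change and for genes against the main direction; up to 4 called genes per pathway list could be named. Adjusted p-values beside calls that some alternative lost, the genes named among those below the filter, and those named in the comparisons with control and between both combined treatments were chosen after their values were seen. The alternatives were a pseudocount of 0.1, no filter, a mean of at least 5 FPKM, median ratio scaling, quantile normalization, a replicate block, only the groups compared, library weights, limma-voom on the recovered reads, and leaving out each library. Running them on the pathway lists was added after the data were seen. Where a group was left with 1 library, that library was assumed to vary like the other groups.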

Additional observations from a re-analysis of the deposited data

How the results depend on the processing

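No called gene of the set changed direction under any alternative run. With no filter on low values, the count of raised genes with TGF-β relative to control cells was 0, where 5.8% of all genes were raised. The rise of Usp18, the only riser in the main test, was also lost with single libraries left out, as given above. Genes lowered with MetR relative to TGF-β numbered 8 with median ratio scaling and 8 with quantile normalization, where 26.6% and 24.9% of all genes tested were lowered. Genes lowered with TGF-β plus MetR relative to control cells numbered 11 of 17 at a mean of at least 5 FPKM. There, 28.9% of all 8984 genes tested were lowered. Genes raised with siHoxc8 relative to control cells numbered 2 with no filter, namely Rsad2 and Oasl, which the filter leaves out. Of all genes, 13.3% were raised there. Genes raised with TGF-β plus MetR relative to control cells numbered 3 with no filter, Rsad2 among them, where 18.4% of all genes were raised. With 1 library left out, the median log2 change of the 25 genes with TGF-β relative to control cells ran from -1.10 to -1.06. That of all genes tested ran from -0.20 to -0.18. Calls of some smaller changes were lost there, as given above.

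The median log2 change of the set turned sign with MetR relative to TGF-β at a mean of at least 5 FPKM (-0.072). With siHoxc8 relative to TGF-β it turned sign at a mean of at least 5 FPKM (-0.081), with median ratio scaling (-0.008) and with quantile normalization (-0.094), and with 1 library left out it ran from -0.015 to 0.117. The cause was not tested.

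Replicate numbers did not pair the libraries: the correlation of replicate differences between groups was -0.02 to 0.202 and passed 0.1 for 1 pair of groups only, TGF-β with TGF-β plus MetR. With the replicate number as a block, 20 genes were lowered and 1 raised with TGF-β relative to control cells, and Irf9 lost its call. Of all genes tested, 28.2% were lowered and 10.4% raised there. With MetR relative to TGF-β, 6 were lowered and 10 raised, where 19.0% and 34.9% of all genes were. The counts of the other 4 comparisons did not change. Genes of few reads, such as Xaf1, Bst2, Isg15 and Rtp4, are limited by depth. Of the 8 genes below the filter, Rsad2, Oasl and Mx2 were called in at least 1 comparison with no filter, and changes of the other 5 were not detectable at this depth by that fit.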
